A study of Mus musculus with 22 samples.

Results

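Expression of 8 genes of the MS4A family, *Ms4a4a*, *Ms4a4b*, *Ms4a4c*, *Ms4a6b*, *Ms4a6c*, *Ms4a6d*, *Ms4a7* and *Ms4a8a*, was followed in sorted lung macrophages and monocytes of mice with SP-C mutant induced injury. The genes were listed by name and matched by Ensembl ID, and all 8 were found among the 31134 genes measured in macrophages and the 55421 measured in monocytes. All 8 passed the filter on low counts in each fit. The 22 samples were of 2 sorted populations, SigF+CD11b- alveolar macrophages and Ly6Chi monocytes, from C57BL/6 mice of the genotype SP-CI73T mutant. Each population was taken from control mice (treatment labelled untreated, 4 samples of each cell type) and from tamoxifen treated mice at 3 d (3 macrophage and 4 monocyte samples) and at 14 d of injury (3 and 4 samples). Controls thus carried the mutant allele too. In this model tamoxifen given by oral gavage activates a Flp-O recombinase driven from the Rosa26 locus, which removes a neomycin cassette and raises mutant SP-C in alveolar type 2 cells of adult mice, and the study describes the controls of monocyte sequencing as oil treated mutant mice, while its methods pool these with tamoxifen treated mice lacking Flp-O for controls in general. SP-C is made by alveolar type 2 cells, not by the sorted cells. Mutant induction, tamoxifen and time after gavage cannot be told apart here.

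MS4A proteins span the membrane 4 times and resemble tetraspanins in topology. The family includes CD20 of B cells (*Ms4a1*) and the beta chain of the high-affinity IgE receptor (*Ms4a2*), and most members sit in 1 gene cluster, in which mice hold several close copies of the *Ms4a4* and *Ms4a6* genes. Several members are known as myeloid markers that associate with other surface receptors: MS4A4A pairs with the beta-glucan receptor Dectin-1 on macrophages, MS4A7 marks mature macrophages of several tissues, MS4A8A has been described on alternatively activated macrophages, and MS4A4B modulates signaling in T cells.

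The 8 genes lay within 537.4 kb of chromosome 19 (GRCm38, 11067471 to 11604849), all protein coding. *Ms4a8a*, *Ms4a7* and *Ms4a6d* were on the minus strand and the other 5 on the plus strand. Sequence between copies bears on what the counts can resolve. Of all 75-base stretches of its transcripts, *Ms4a6c* shared 47.7% with BE692007, *Ms4a6b* or *Prdm11*. BE692007 is an antisense gene whose exons overlap those of *Ms4a6c* over 1088 bases, so that reads of this pair cannot be told apart if counting ignored strand. *Ms4a4c* shared 3.78% of its stretches, *Ms4a4b* 1.18%, *Ms4a6b* 0.632% and *Ms4a6d* 0.408%, and *Ms4a4a*, *Ms4a7* and *Ms4a8a* shared none. The *Ms4a4a* model ends at its stop codon and has only 836 exonic bases, against 1735 to 8780 for the other 7.

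The close copies also resemble each other upstream of their starts. RefSeq promoters (GRCm38.p6) were found for 7 members, with 2 starts for *Ms4a7*, and not for *Ms4a6d*. Shown are the 250 bases before the start, 5′ to 3′ along the gene, for both pairs of close copies, so that they can be read against each other, and for *Ms4a7*, the member with the largest fold change in monocytes at 14 d. The windows are chr19:11518309-11518558 (*Ms4a6b*, plus strand), chr19:11469118-11469367 (*Ms4a6c*, plus), chr19:11407411-11407660 (*Ms4a4c*, plus), chr19:11443308-11443557 (*Ms4a4b*, plus), and chr19:11336147-11336396 and chr19:11334696-11334945 (*Ms4a7*, minus, first and second start). Capitals mark matches to an interferon regulatory factor (IRF) motif, GAAANNGAA, or to an AP-1 motif, TGANTCA, on either strand.
Ms4a6b: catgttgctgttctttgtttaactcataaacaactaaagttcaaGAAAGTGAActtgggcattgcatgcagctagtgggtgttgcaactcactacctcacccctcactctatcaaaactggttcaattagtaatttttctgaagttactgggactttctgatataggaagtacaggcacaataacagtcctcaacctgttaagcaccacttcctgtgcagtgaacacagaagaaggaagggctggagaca
Ms4a6c: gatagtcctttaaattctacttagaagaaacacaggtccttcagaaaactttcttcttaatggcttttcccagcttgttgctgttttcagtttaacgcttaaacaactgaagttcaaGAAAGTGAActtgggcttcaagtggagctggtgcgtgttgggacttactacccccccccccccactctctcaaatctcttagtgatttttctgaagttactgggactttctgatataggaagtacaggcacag
Ms4a4c: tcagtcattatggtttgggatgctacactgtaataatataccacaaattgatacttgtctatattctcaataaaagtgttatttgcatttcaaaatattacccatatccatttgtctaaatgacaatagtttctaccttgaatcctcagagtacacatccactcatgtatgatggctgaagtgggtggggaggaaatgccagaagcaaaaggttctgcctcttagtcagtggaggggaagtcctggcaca
Ms4a4b: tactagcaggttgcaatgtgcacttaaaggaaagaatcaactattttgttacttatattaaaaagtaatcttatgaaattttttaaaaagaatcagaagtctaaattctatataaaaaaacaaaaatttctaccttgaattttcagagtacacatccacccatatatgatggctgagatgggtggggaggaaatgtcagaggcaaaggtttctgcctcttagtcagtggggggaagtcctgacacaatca
Ms4a7 first start: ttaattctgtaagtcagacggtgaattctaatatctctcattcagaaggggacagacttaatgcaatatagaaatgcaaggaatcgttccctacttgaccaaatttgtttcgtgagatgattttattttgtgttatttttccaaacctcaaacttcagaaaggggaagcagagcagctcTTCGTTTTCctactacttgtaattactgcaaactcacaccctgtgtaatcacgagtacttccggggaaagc
Ms4a7 second start: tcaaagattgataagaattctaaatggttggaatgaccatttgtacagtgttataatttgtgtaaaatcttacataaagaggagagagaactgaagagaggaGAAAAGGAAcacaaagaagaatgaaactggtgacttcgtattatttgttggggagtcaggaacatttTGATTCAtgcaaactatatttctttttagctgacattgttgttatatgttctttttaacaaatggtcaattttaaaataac
*Ms4a6b* and *Ms4a6c* carried the same IRF motif match, GAAAGTGAA, beginning 206 and 133 bases before their starts, and their longest identical run was 48 bases (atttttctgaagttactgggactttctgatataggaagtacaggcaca), 118 to 71 bases before the start of *Ms4a6b* and 49 to 2 before that of *Ms4a6c*. *Ms4a4c* and *Ms4a4b* shared a run of 20 bases and held no match to either motif. Both *Ms4a7* windows held an IRF match, beginning 71 and 148 bases before the start, and the second also held an AP-1 match. *Ms4a8a* held 1 AP-1 match, 244 bases before its start, and *Ms4a4a* held neither. No member matched a PU.1 motif (GAGGAAGT) or a C/EBP motif (TTNNGCAA). Of 32817 mouse promoter windows of the same length, 7.12% held the IRF motif, 6.75% the AP-1 motif, 2.44% the PU.1 motif and 9.57% the C/EBP motif, and a match is a description of letters only.

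Depth and purity touch every value below. Total counts per sample ran from 15451460 to 28789639 in monocytes and from 4610720 to 17074863 in macrophages, with all 3 macrophage samples of 14 d below the others (at most 6838893). Monocyte samples of 3 d stood apart in the number of genes with a count, 40119 to 41134 against 24775 to 32492 at the other times. Macrophage samples of 14 d, although the shallowest, also had the most genes with a count of that cell type. Their range was 27699 to 30627, against 21951 to 27616 in controls and 21499 to 26335 at 3 d. In both cell types, Y-linked counts were 0 to 3 per sample in control and 3 d samples and at least 433 at 14 d, while *Xist* fell from 552 or more counts to at most 32, so that sex and the 14 d time point cannot be told apart. In controls all 10 alveolar macrophage markers tested were called higher in control macrophages than in control monocytes, and 6 of 8 classical monocyte markers lower. The other two were *Chil3*, called higher in macrophages, and *Fn1*, not called, and through *Chil3* the classical list summed higher in control macrophages (median 26130 CPM) than in control monocytes (19980 CPM). Counts of other cell types moved as well. T and NK cell markers summed to 414 to 1742 CPM in control monocytes against 23.2 to 319 at 3 d and 26.2 to 48.6 at 14 d, and *Gzma* was the most abundant of them. In these bulk samples, fewer cells of a type and less RNA per cell cannot be told apart.

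In control mice the family was mostly expressed in monocytes. The 8 genes together took 0.336% to 0.455% of the counts of control monocytes and 0.0486% to 0.0623% of those of control macrophages. In the fit over all 22 samples, 7 members were called lower in control macrophages than in control monocytes and 1, *Ms4a8a*, higher, where a call means an adjusted p-value under 0.05 with a fold change above 1.5. Among all 26692 genes tested 19.7% were called lower and 24.5% higher, and the median log2 difference was 0.05, against -4.90 for the 8 members. Each cell type was counted in a table of its own, so that cell type and table cannot be told apart.

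The gap was widest for *Ms4a4a*, at 338 to 713 CPM in control monocytes and 0, 1, 5 and 5 counts in the 4 control macrophage samples (0 to 0.38 CPM), a log2 difference of -11.79 ± 0.69 (SE, as after every log2 value here; edgeR adjusted p = 4.07e-11). *Ms4a4c* (-9.18 ± 0.51) and *Ms4a6b* (-8.45 ± 0.39) followed, both at 754 CPM or more in every control monocyte sample and at most 6.68 CPM in control macrophages. *Ms4a4b* differed by -4.99 ± 0.34 and *Ms4a6c* by -4.81 ± 0.23 on the log2 scale. The differences of *Ms4a7* (-2.02 ± 0.24) and *Ms4a6d* (-1.70 ± 0.21) were the smallest of the 7, and the adjusted p of the last was 2.51e-07. *Ms4a8a* went the other way, with 316, 360.3, 470.1 and 386 CPM in control macrophages against 174, 129, 194 and 146 CPM in control monocytes, a log2 difference of 0.89 ± 0.17 (adjusted p = 8.54e-05). All 4 macrophage values lay above all 4 monocyte values.

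To set genes side by side, levels were divided by the annotated exonic length. Any order of genes depends on these lengths, from 836 bases for *Ms4a4a* to 8780 for *Ms4a4b*, which cover all annotated exons rather than the transcripts expressed. Read so, control monocytes expressed *Ms4a4a* (733 ± 247 CPM per kb, SD, n = 4), *Ms4a6c* (683 ± 38.7) and *Ms4a4c* (673 ± 132) at levels that did not differ beyond their spread. *Ms4a6d* (261 ± 31.8) and *Ms4a6b* (251 ± 24.7) came next and overlapped each other. *Ms4a8a* stood at 100.8 ± 16.6, *Ms4a4b* at 10.1 ± 3.70 and *Ms4a7* at 6.02 ± 0.15 CPM per kb. In control macrophages the order was *Ms4a8a* (187 ± 37.3), *Ms4a6d* (80.2 ± 14.2) and *Ms4a6c* (24.4 ± 3.50), with no overlap between neighbours, and the other 5 members lay at 1.78 CPM per kb or lower in every sample. *Ms4a8a* alone made up 62.0% ± 5.06 of the 8 genes' counts in control macrophages (SD, n = 4), against 3.64% ± 0.98 in control monocytes.

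**Figure D1:**
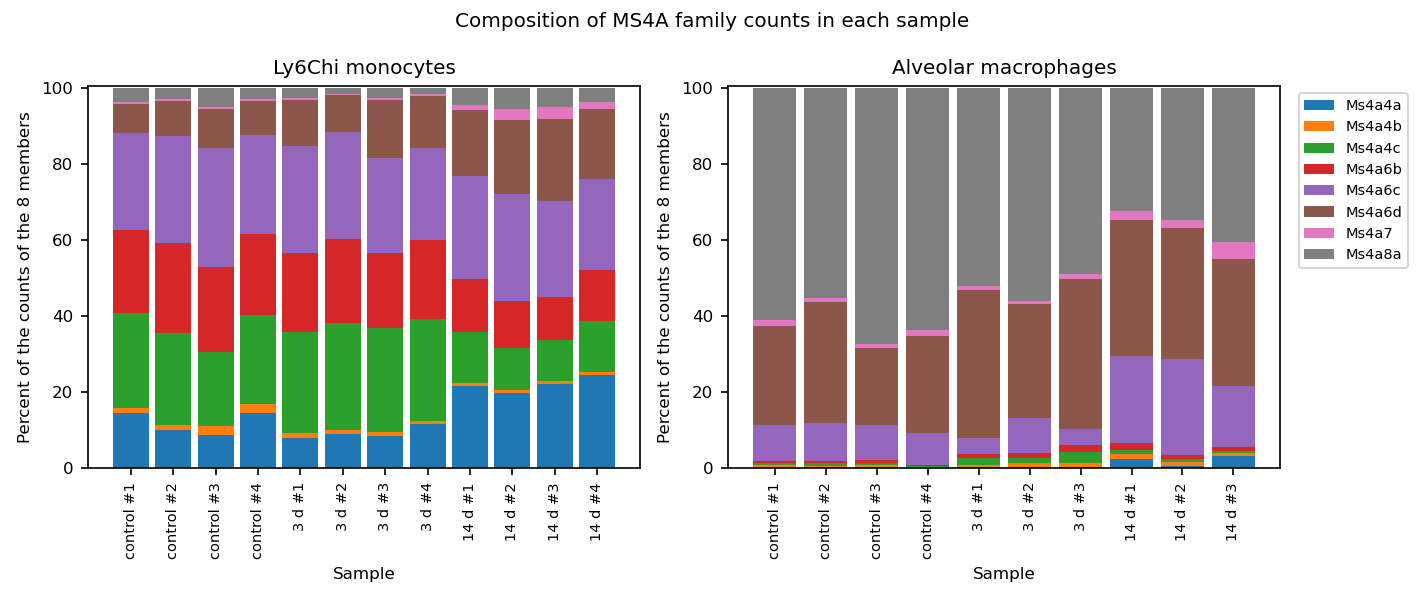
Share of each gene in the counts of the 8 MS4A genes, in percent, for every sample of Ly6Chi monocytes (left) and alveolar macrophages (right). In monocytes *Ms4a4c* and *Ms4a6b* (green and red) shrink at 14 d while *Ms4a4a*, *Ms4a6d* and *Ms4a7* widen, and in macrophages *Ms4a8a* (grey) falls from 62.0% on average in controls to 35.9% at 14 d.

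The next comparison asked how the family changed in monocytes during the initiation of injury. At 3 d, *Ms4a4a*, *Ms4a4b*, *Ms4a7* and *Ms4a8a* were called lower than in control and no member was called higher. Among all 22353 genes tested 14.4% were called lower and 36.8% higher at this time, and the median log2 fold change was 0.22, against -0.58 for the 8 members. Scaling decided part of this: with library size scaling the median of all genes rose to 0.70 and the calls of *Ms4a4a* and *Ms4a7* were lost, whereas *Ms4a4b* and *Ms4a8a* were called lower under all 8 alternatives. The background depends on low-count genes too. With a stricter filter (mean log2 CPM above 1) the median of all genes was -0.02, and 13.3% of genes were called, higher and lower together.

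*Ms4a8a* was measured at 174, 129, 194 and 146 CPM in control replicates 1 to 4, at 75.3, 56.2, 88.1 and 68.9 CPM at 3 d, and at 189, 172, 196 and 156 CPM at 14 d. All 3 d samples lay below all others, and the 14 d samples overlapped controls. The log2 fold change was -1.15 ± 0.17 at 3 d (adjusted p = 0.000472), and from 3 d to 14 d the gene rose by 1.30 ± 0.17 (adjusted p = 0.000396). Against control the 14 d difference was 0.15 ± 0.17 (adjusted p = 0.644).

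*Ms4a4b*, a gene of lymphocytes as well as myeloid cells, stood at 56.2, 56.5, 86.1 and 113 CPM in controls. It was at 32.2, 35.9, 28.8 and 33.0 CPM at 3 d and at 39.1, 29.6, 27.0 and 33.2 CPM at 14 d. Every injured sample lay below every control, and the injured times overlapped. Log2 fold changes against control were -1.26 ± 0.22 (adjusted p = 0.000914) and -1.28 ± 0.22 (adjusted p = 0.00173), and 14 d differed from 3 d by -0.02 ± 0.22. Control replicates 3 and 4, with the highest *Ms4a4b*, also held the most T and NK cell marker counts, 1742 and 1419 CPM summed over 12 markers against 414 and 625 in replicates 1 and 2. Without those samples the changes were smaller, -0.85 at 3 d (adjusted p = 0.00493) and -0.79 at 14 d (adjusted p = 0.0161), and stayed called. At 3 d, 8 of the 12 T and NK cell markers were called lower, and all 8 markers of patrolling monocytes, the Ly6C-low subset, were called lower at both times, among them *Nr4a1* (-2.29 and -2.26) and *Cx3cr1* (-2.01 and -1.80). The part of either population in *Ms4a4b* was not tested.

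*Ms4a4a* stood at 667, 449, 338 and 713 CPM in controls, at 216, 294, 281 and 448 CPM at 3 d, and at 881, 612, 843 and 993 CPM at 14 d. The groups at 3 d and 14 d did not overlap each other, but each overlapped controls. The fall at 3 d was -0.80 ± 0.26 (adjusted p = 0.0169), and it was no longer called without control replicate 4 (-0.61) or without 3 d replicate 1 (-0.61), 2 (-0.74) or 3 (-0.68). The rise from 3 d to 14 d was called (1.42 ± 0.26, adjusted p = 0.00159), and the difference between 14 d and control was 0.62 ± 0.25 (adjusted p = 0.163).

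At 14 d, the peak of inflammation, the members moved in both directions in monocytes. *Ms4a7* and *Ms4a6d* were called higher than control, and *Ms4a4b*, *Ms4a4c* and *Ms4a6b* lower. Of all genes tested 3.22% were called higher and 5.34% lower, with a median log2 fold change of 0.09, against -0.09 for the members. These 5 calls were kept under every alternative and without each sample in turn.

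**Figure D2:**
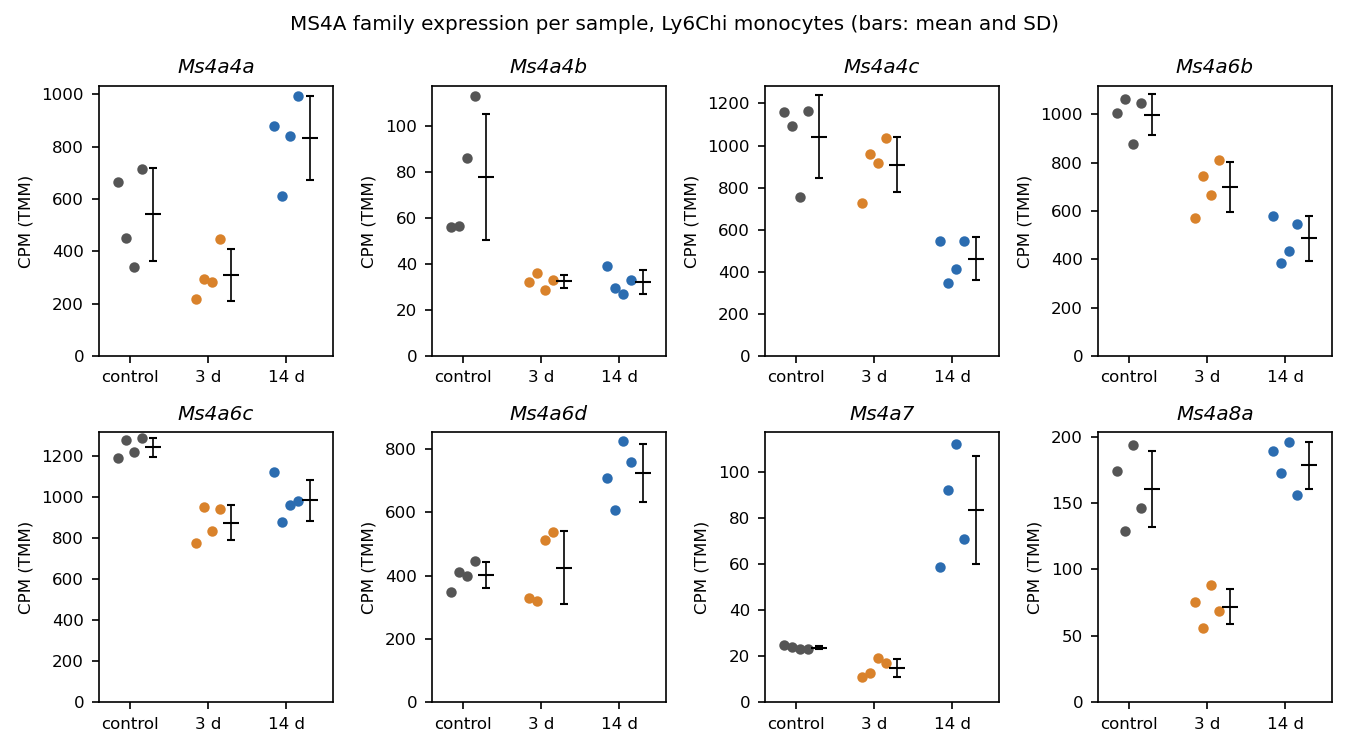
Normalised level (CPM, TMM-scaled) of the 8 MS4A genes in each Ly6Chi monocyte sample of control, 3 d and 14 d mice, 4 samples per group, with the mean and SD beside each group. *Ms4a7* reaches 58.7 to 112 CPM at 14 d above a control range of 23.2 to 24.7, whereas *Ms4a4c* and *Ms4a6b* fall below every control at 14 d.

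*Ms4a7*, the macrophage marker, was at 24.7, 24.0, 23.2 and 23.3 CPM in controls. It was at 11.03, 12.7, 19.2 and 17.2 CPM at 3 d and at 58.7, 92.1, 112 and 70.7 CPM at 14 d. The 3 groups did not overlap. The log2 fold change at 14 d was 1.81 ± 0.22 (adjusted p = 0.000129), and from 3 d to 14 d it was 2.46 ± 0.22 (adjusted p = 2.7e-05). The fall at 3 d, -0.66 ± 0.22 (adjusted p = 0.0192), was lost without 3 d replicate 1 (-0.49) or 2 (-0.55). Of 12 markers of monocyte-derived macrophages, 7 were called higher at 14 d and none lower, including *Spp1*, the matrix protein osteopontin (7.20 ± 1.08), but not *Apoe*, an apolipoprotein and the most abundant of them over the 12 monocyte samples (0.11, adjusted p = 0.905). All 12 were called higher at 14 d than at 3 d, with a median log2 fold change of 2.55 against -0.26 for all genes.

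*Ms4a6d* was at 348, 410.0, 399 and 447 CPM in controls, at 329.8, 320.4, 511 and 536 CPM at 3 d, and at 709, 607, 825 and 757 CPM at 14 d. The 3 d samples lay on both sides of the controls, while all 14 d samples were above both groups. The rise at 14 d was 0.85 ± 0.18 (adjusted p = 0.00718). At 3 d the difference was 0.09 ± 0.18 (adjusted p = 0.685), and between 14 d and 3 d it was 0.76 ± 0.18 (adjusted p = 0.00469), a call lost with library size scaling (0.38, adjusted p = 0.102).

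*Ms4a4c* was at 1159, 1094, 754 and 1165 CPM in controls, at 725, 959, 917 and 1037 CPM at 3 d, and at 548, 344, 412 and 546 CPM at 14 d. Samples of 3 d overlapped controls, and all 14 d samples lay below both. The change was -0.19 ± 0.18 at 3 d (adjusted p = 0.392) and -1.17 ± 0.19 at 14 d (adjusted p = 0.000961), and 14 d lay -0.98 ± 0.19 from 3 d (adjusted p = 0.00181).

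*Ms4a6b* was at 1005, 1062, 875 and 1046 CPM in controls, at 572, 745, 668 and 809.6 CPM at 3 d, and at 580.1, 383, 436 and 547 CPM at 14 d. All injured samples lay below all controls. The log2 fold change was -1.03 ± 0.15 at 14 d (adjusted p = 0.000626) and -0.51 ± 0.15 at 3 d (adjusted p = 0.0131), the latter under the fold threshold and thus not called. *Ms4a6c*, which carries the same IRF motif match, was at 1188, 1273, 1217 and 1284 CPM in controls, at 773, 949.5, 835 and 939 CPM at 3 d, and at 1118, 876, 959.7 and 978 CPM at 14 d. Its injured samples were likewise all below its controls. The log2 fold change was -0.50 ± 0.11 at 3 d (adjusted p = 0.00337), under the fold threshold, and -0.34 ± 0.11 at 14 d (adjusted p = 0.0896). For both genes the 3 d difference depended on scaling. TMM from highly expressed genes gave 0.019 for *Ms4a6b* and 0.027 for *Ms4a6c* at 3 d. The antisense gene BE692007 had 733 to 1800 counts per monocyte sample, against which *Ms4a6c* cannot be read separately.

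Genes of the interferon response moved with *Ms4a4c* and *Ms4a6b*. All 12 interferon-stimulated genes listed were called lower in monocytes at 14 d, with a median log2 fold change of -2.81, including *Irf7*, a regulator of the response (-2.84 ± 0.23), *Oasl2* (-2.97 ± 0.28) and the nucleic acid sensor *Zbp1* (-1.89 ± 0.15). Their summed level was 2115 to 3009 CPM in controls, 1177 to 2217 at 3 d and 371 to 549.6 at 14 d, and at 3 d 2 of the 12 were called lower. The part of interferon signaling in the MS4A genes was not tested.

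Across the 12 monocyte samples, log2 CPM of *Ms4a4c* and *Ms4a6b* followed each other (Pearson r = 0.931, Spearman rho = 0.93), as did *Ms4a6d* and *Ms4a7* (0.859 and 0.748), while *Ms4a4c* and *Ms4a7* ran in opposite directions (-0.814 and -0.49). These samples share 3 groups and 1 scaling, so the values describe the groups as much as the genes. Among 8078 genes with a mean log2 CPM above 3, those most correlated with *Ms4a4c* were *Ifih1* (r = 0.972), an RNA sensor, *Oas3* (0.965), an antiviral synthetase, and *Ifi206* (0.96), an interferon-inducible gene. For *Ms4a6b* they were *Fgl2* (0.969), *Nlrc5* (0.968), a transactivator of MHC class I, and *Isg20* (0.958), an antiviral exonuclease. *Ms4a7* was followed most closely by *Abca1* (0.988), a cholesterol exporter, *2610001J05Rik* (0.976) and the lysosomal protease gene *Lgmn* (0.972). *Ms4a6d* was followed by *Il1rn* (0.96), the interleukin-1 receptor antagonist, and *Lap3* (0.955). The nearest genes of *Ms4a4b* were *Fcgr4* (0.959), an Fc receptor of Ly6C-low monocytes, *Pou2f2* (0.955) and *Scnn1a* (0.946), with lower rank correlations of 0.706 to 0.818. *Ms4a4a* (*Gk*, *Metap2* and *Wdr46*, 0.942 to 0.944), *Ms4a6c* (*Lipe*, *Tnfsf13os* and *Rnf41*, 0.948 to 0.954) and *Ms4a8a* (*Sirt2*, *Med10* and *BC031181*, 0.963 to 0.977) had other neighbours.

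**Figure D3:**
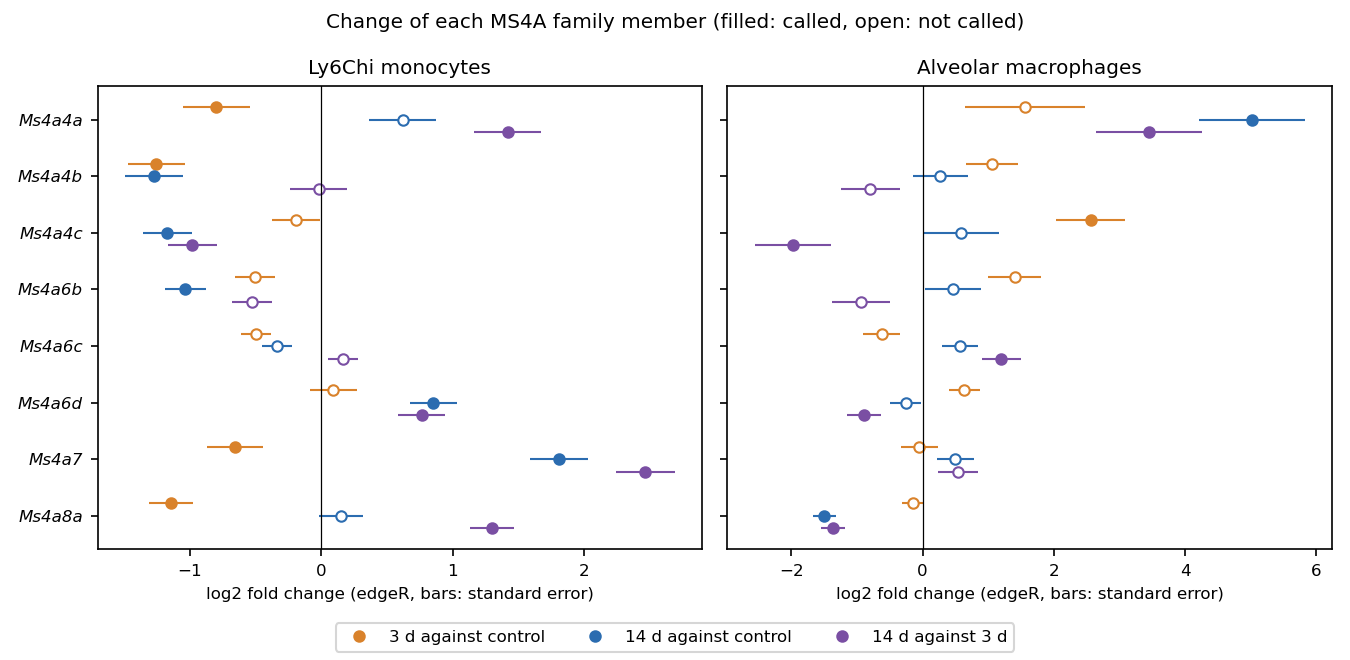
Log2 fold change (edgeR) of each MS4A gene with its standard error in Ly6Chi monocytes (left) and alveolar macrophages (right), for each injury time relative to control and for the later time relative to the earlier, filled where called. In monocytes *Ms4a7* has the largest rise (2.46 from 3 d to 14 d), and in macrophages *Ms4a4a* has the largest (5.02 at 14 d), on the counts of 16 to 64 given in the text.

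Between 3 d and 14 d in monocytes, *Ms4a4a*, *Ms4a6d*, *Ms4a7* and *Ms4a8a* were thus called higher and *Ms4a4c* lower. Of all genes tested 12% were called higher and 34.5% lower, and the median log2 fold change was -0.26, against 0.46 for the members. Together the 8 genes summed to 3885 to 4939 CPM in controls, 2735 to 3889 at 3 d and 3116 to 4123 at 14 d. This order rests on TMM scaling, since as a share of the library they took 0.392% ± 0.0494, 0.408% ± 0.0589 and 0.355% ± 0.0477 (SD, n = 4 each), with overlapping ranges. Within that sum, *Ms4a4c* fell from 23.1% ± 2.54 of the family's counts in controls to 12.1% ± 1.39 at 14 d and *Ms4a6b* from 22.3% ± 1.05 to 12.8% ± 1.16, whereas *Ms4a4a* went from 11.9% ± 2.98 to 21.9% ± 1.95 and *Ms4a6d* from 8.99% ± 1.12 to 19.2% ± 1.88 (SD, n = 4 each). For each of these 4 genes the control and 14 d ranges did not overlap.

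The same times were compared in alveolar macrophages. At 3 d, 1 member, *Ms4a4c*, was called higher and none lower. Of the 20944 genes tested 1.05% were called higher and 0.224% lower, with a median of -0.01, against 0.85 for the 8 members.

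*Ms4a4c* was at 2.80, 3.72, 2.23 and 0.66 CPM in control macrophages, at 12.03, 6.59 and 23.2 CPM at 3 d, and at 5.01, 3.87 and 1.51 CPM at 14 d. All 3 d samples lay above all others. The log2 fold change was 2.56 ± 0.52 (adjusted p = 0.0333), but the call was lost without any of 7 of the 10 samples (control replicates 1 and 3, 3 d replicates 1 and 3, or any 14 d sample, adjusted p = 0.0501 to 0.109), so that it rests on the whole set. By 14 d the gene had fallen from 3 d by 1.97 ± 0.58 on the log2 scale (adjusted p = 0.0106), a call lost without 14 d replicate 3. *Ms4a6b*, at 1.79 to 6.68 CPM in controls and 6.82 to 15.0 at 3 d, and *Ms4a4b*, at 1.46 to 4.98 and 4.08 to 9.80, differed by 1.41 ± 0.40 (adjusted p = 0.107) and 1.07 ± 0.40 (adjusted p = 0.219).

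Marker levels of other cells are given beside these low values. No B cell marker (of 6) and no classical monocyte marker (of 8) was called at 3 d, when 1.05% of all genes were called higher. Their median log2 fold changes were 1.56 and 1.16, against -0.01 for all genes. The 3 d sample with the most *Ms4a4c*, replicate 3, also held the most B cell marker counts, 992 CPM summed over 6 markers. The other 3 d samples held 552 and 330.1 CPM, and controls 113 to 289. Replicate 3 of 3 d also held the most *Chil3* (47600 CPM, against at most 25340 in controls). Control macrophages held *Chil3* at a higher level than control monocytes (0.85 ± 0.25 on the log2 scale). Mast cell and basophil markers summed to 48.8 to 105 CPM at 3 d against 4.63 to 9.37 in controls, and 5 of 6 were called higher. Control monocytes held *Ms4a4c* at 754 CPM or more, and the part of other cells in the macrophage values was not tested.

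**Figure D4:**
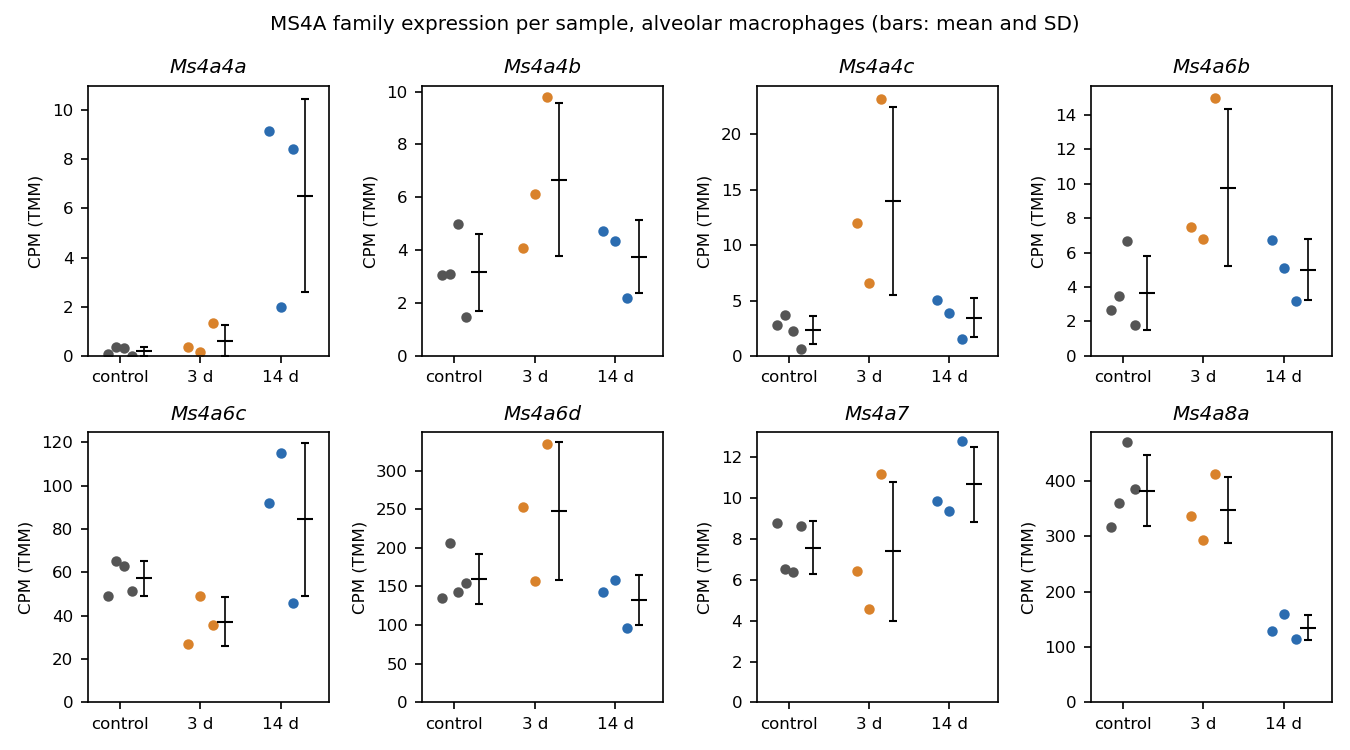
Normalised level (CPM, TMM-scaled) of the 8 MS4A genes in each alveolar macrophage sample (4 control, 3 at 3 d and 3 at 14 d), with the mean and SD beside each group. *Ms4a8a* lies at 115 to 160 CPM at 14 d, below every control and 3 d sample, and the axis of *Ms4a4a* ends near 10 CPM.

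At 14 d, *Ms4a4a* was called higher and *Ms4a8a* lower in macrophages. Calls were frequent at this time, 39.4% of all genes tested higher and 22.9% lower, with a median log2 fold change of 0.18, against 0.48 for the members. Of the 10 alveolar macrophage markers, 8 were called lower, such as *Itgax* (-0.95 ± 0.14) and *Atp6v0d2* (-1.42 ± 0.16), while *Car4*, the most abundant, was not (-0.87, adjusted p = 0.119). Their sum went from 5677 to 6906 CPM in controls to 2250 to 3116. Neutrophil markers summed to 375 to 1504 CPM at 14 d against 68.6 to 213 in controls. Of 6 eosinophil markers 4 were called higher and 1 lower (median log2 fold change 3.89), while their sum was 174 to 247 CPM against 242 to 359. Of 6 mast cell and basophil markers 5 were called higher, and of 6 dendritic cell markers 3. The part of these shifts in the MS4A genes was not tested.

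*Ms4a8a*, the leading member in macrophages, was at 316, 360.3, 470.1 and 386 CPM in controls, at 338, 294 and 412 CPM at 3 d, and at 129, 159.6 and 115 CPM at 14 d. The 3 d samples overlapped controls, and all 14 d samples lay below both. The log2 fold change was -1.50 ± 0.18 at 14 d (adjusted p = 7.36e-06), called under all 7 alternatives, and -0.14 ± 0.17 at 3 d (adjusted p = 0.758). From 3 d to 14 d it was -1.36 ± 0.18 (adjusted p = 6.5e-05). The genes closest to it across the 10 macrophage samples, among 9642, were *Tcof1* (r = 0.994), *Oat* (0.991) and *Dnajb9* (0.988), a chaperone of the endoplasmic reticulum.

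*Ms4a4a* gave 1, 5, 5 and 0 counts in control macrophages, 5, 2 and 13 counts at 3 d, and 64, 16 and 50 counts at 14 d, or 9.16, 1.99 and 8.40 CPM. Every 14 d sample was above every other sample, by the least in replicate 2. The fitted log2 fold change was 5.02 ± 0.80 against control (adjusted p = 0.000101) and 3.45 ± 0.81 against 3 d (adjusted p = 0.00234), from very few control counts. The level stayed far under that of monocytes at 14 d, 612 to 993 CPM. Most other MS4A genes near 0 in macrophages were highest in 14 d replicate 2, where *Ms4a4a* was lowest. These were *Ms4a18* (5, 16 and 0 counts), *Ms4a15* (6, 20 and 3), *Ms4a3*, *Ms4a4d*, *Ms4a5*, *Ms4a10* and *Ms4a14*. Only *Ms4a13* (7, 2 and 4) was highest in replicate 1 and lowest in replicate 2, like *Ms4a4a*. With no filter on low counts the median log2 fold change of all genes at 14 d was 1.37. The part of such a shift of low counts in the *Ms4a4a* value was not tested. Of 12 markers of monocyte-derived macrophages, 7 were called higher and 5 lower in these samples, with *Spp1* at 2.03 ± 0.66 and *Mrc1*, the mannose receptor, at -1.63 ± 0.18. Of 8 classical monocyte markers, 4 were called higher, among them *Fn1*, fibronectin (0.80 ± 0.18), and *Ccr2*, the monocyte chemokine receptor (1.57 ± 0.40), while *Chil3*, a chitinase-like protein and the most abundant, was not (-0.10, adjusted p = 0.722). *Itgam*, named after its values were seen because it encodes the CD11b that the sort selected against, was 5.45 ± 0.57 higher on the log2 scale (adjusted p = 4.42e-05). Both list counts stand beside 39.4% of all genes called higher and 22.9% lower, so that 4 of 8 is near the background.

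*Ms4a6c* was at 49.2, 65.4, 63.1 and 51.4 CPM in control macrophages, at 26.8, 49.1 and 35.5 CPM at 3 d, and at 92.1, 115 and 45.7 CPM at 14 d. All 3 d samples lay under the lowest control, replicate 2 only just, and the 14 d samples lay on both sides of the controls. It differed from control by -0.62 ± 0.28 at 3 d (adjusted p = 0.334) and by 0.57 ± 0.27 at 14 d (adjusted p = 0.0744), where 5 of 7 alternatives called it higher (DESeq2 0.72, adjusted p = 0.012), and was called higher at 14 d than at 3 d (1.20 ± 0.30, adjusted p = 0.00417). Its nearest gene in macrophages was the overlapping BE692007 (r = 0.978), with 198 to 643 counts per sample, followed by *Thada* (0.929) and *Rgs3* (0.901).

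*Ms4a6d* was at 135, 206.5, 143 and 154 CPM in controls, at 252, 156.5 and 335 CPM at 3 d, and at 143, 158 and 95.9 CPM at 14 d. The groups overlapped, and 3 d replicate 3 was the highest. Against control the change was 0.63 ± 0.24 at 3 d (adjusted p = 0.231) and -0.26 ± 0.24 at 14 d (adjusted p = 0.352), where library size scaling gave 0.17. From 3 d to 14 d *Ms4a6d* was called lower, by -0.89 ± 0.26 (adjusted p = 0.00873), a call lost with that scaling (-0.46, adjusted p = 0.11). Its nearest genes were *Smn1* (r = 0.973), *Ldha* (0.965) and *Cstb* (0.965).

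*Ms4a7* was at 8.75, 6.53, 6.35 and 8.62 CPM in control macrophages, at 6.44, 4.57 and 11.2 CPM at 3 d, and at 9.87, 9.35 and 12.8 CPM at 14 d. All 14 d samples lay above the controls, and 3 d samples spread across both. The change of 0.50 ± 0.28 at 14 d was not called (adjusted p = 0.124), while 4 alternatives called it, among them DESeq2 (0.68, adjusted p = 0.0498), and at 3 d it was -0.05 ± 0.28. Its nearest genes were *Dtl* (r = 0.912), *Ints11* (0.889) and *Bub1* (0.877). At 14 d, *Ms4a4b*, *Ms4a4c* and *Ms4a6b* lay between 1.51 and 6.72 CPM and overlapped their controls.

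In macrophages 14 d against 3 d gave *Ms4a4a* and *Ms4a6c* higher and *Ms4a4c*, *Ms4a6d* and *Ms4a8a* lower. Of all genes tested 36.3% were called higher and 20% lower in that comparison, with a median of 0.16, against -0.84 for the members.

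Whether the cell types differed in their change was tested as an interaction. At 3 d the change in macrophages minus that in monocytes was called above 0 for *Ms4a4c* (2.59 ± 0.55, adjusted p = 0.00508), *Ms4a4b* (2.14 ± 0.44, adjusted p = 0.00319), *Ms4a6b* (1.73 ± 0.44, adjusted p = 0.012) and *Ms4a8a* (0.83 ± 0.25, adjusted p = 0.0242), and below 0 for none. Of 26692 genes 3.51% were called above 0 and 15.2% below, with a median of -0.63, against 1.28 for the members. The difference of *Ms4a8a* was lost without macrophage control replicate 1 (0.74) or 2 (0.78), and under 3 of 7 alternatives, library size scaling (0.53), TMM from highly expressed genes (0.51) and the stricter filter (0.65).

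At 14 d the differences ran both ways. *Ms4a4a* (4.08 ± 0.84, adjusted p = 0.00117) and *Ms4a4b* (1.20 ± 0.46, adjusted p = 0.0447) were called above 0, and *Ms4a8a* (-2.003 ± 0.25, adjusted p = 3.84e-06), *Ms4a7* (-1.65 ± 0.36, adjusted p = 0.00109) and *Ms4a6d* (-1.45 ± 0.31, adjusted p = 0.000992) below. Among all genes 16.9% were called above 0 and 19.9% below, with a median of 0.48, against 0.85 for the members. The count above 0 ran from 1 to 5 over the alternatives, as *Ms4a6b* was called in 6 of 7 of them (here 1.15 ± 0.46, adjusted p = 0.0524), *Ms4a4c* in 5 (1.43 ± 0.59, adjusted p = 0.0643) and *Ms4a6c* in 4 (0.55 ± 0.28, adjusted p = 0.124). *Ms4a4b* lost its call without any of 10 samples and without the pair of control monocyte samples rich in T and NK cell markers (0.98, adjusted p = 0.0764). *Ms4a7* rose in monocytes, and its 14 d samples in macrophages differed from control by less than the threshold.

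Of 12 other MS4A and MS4A-like genes, 7 were tested in monocytes and 4 in macrophages, the rest having too few counts. *Tmem176a* and *Tmem176b*, related genes outside the cluster, were the only ones above 20 CPM in any monocyte sample. *Tmem176b* was at 585, 771, 553 and 483 CPM in control monocytes, 43.0, 328, 97.7 and 152 CPM at 3 d, and 552, 321, 258 and 291 CPM at 14 d. Each 3 d sample lay below all controls, with replicate 2 far above the rest of its group. Both genes were called lower at 3 d (*Tmem176a* -1.84 ± 0.42, *Tmem176b* -1.94 ± 0.49) and higher in macrophages at 3 d (1.71 ± 0.36 and 1.58 ± 0.31) and at 14 d (1.89 ± 0.36 and 2.11 ± 0.31). *Ms4a1* (CD20) was called lower in monocytes at both times (-1.08 ± 0.41 and -1.70 ± 0.42), and in macrophages lay at 36.4 to 153 CPM at 3 d against 11.9 to 29.2 in controls (1.96 ± 0.54, adjusted p = 0.143). *Ms4a2* rose in macrophages at 3 d, from 6 to 12 counts to 118 to 310 (4.68 ± 0.39, adjusted p = 2.05e-05). At 14 d, in shallower libraries, it stood at 1.15, 2.99 and 2.01 CPM against 0.40 to 0.82 in controls and was also called higher (1.69 ± 0.44, adjusted p = 0.0031).

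Low counts held the remainder. In monocytes *Ms4a3*, a gene of granulocyte and monocyte progenitors, had 2 to 4 counts in controls, 4 to 92 at 3 d and 32 to 61 at 14 d, and was called higher at both times. *Ms4a14* went from 0 to 3 counts to 1 to 16 and 13 to 46, also called higher at both times. *Ms4a15* went from 7 to 20 counts to 29 to 41 at 3 d (1.62 ± 0.50) and 2 to 7 at 14 d (-1.40 ± 0.55, adjusted p = 0.14). *Ms4a2* had 1 to 8 counts in control monocytes, 24 to 50 at 3 d and 0 to 5 at 14 d. Of the 7 tested, 4 were called higher at 3 d, *Ms4a2* among them, beside 36.8% of all genes tested. With no filter on low counts the median log2 fold change of all genes at 3 d was 1.55, and with the stricter filter -0.02. *Ms4a4d*, *Ms4a5*, *Ms4a10*, *Ms4a13* and *Ms4a18* had at most 22 counts in any sample and were not tested within either cell type.

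Among 6 genes of receptors and adaptors listed beside the family, *Trem2*, a lipid receptor of macrophages, rose in monocytes at 14 d (1.63 ± 0.25, adjusted p = 0.000665), from 45.4 to 84.3 CPM in controls to 141 to 280.0. In macrophages it also rose at 14 d (0.65 ± 0.18, adjusted p = 0.00417). *Clec7a*, which encodes Dectin-1, the partner of MS4A4A, was at 687 to 1282 CPM in control monocytes and 1139 to 1997 at 14 d (0.73 ± 0.27, adjusted p = 0.122). *Tyrobp* and *Fcer1g*, signaling adaptors, were called lower in monocytes at 3 d (-0.69 ± 0.13 and -0.64 ± 0.12) and in macrophages at 14 d (-1.16 ± 0.16 and -0.63 ± 0.15). *Tnfrsf18*, which encodes GITR, a receptor that MS4A4B associates with in T cells, was called lower in monocytes at both times (-2.03 ± 0.36 and -2.24 ± 0.36), and was highest in control replicates 3 and 4 (13.2 and 9.88 CPM against 5.30 and 6.66). *Fcer1a*, the binding chain of the IgE receptor, was called higher at 3 d in both cell types, with 10 to 26 counts in the monocyte samples and 63 to 198 in the macrophage samples. The monocyte call stands beside 36.8% of all genes called higher at that time.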

How the data were processed

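The study sorted Ly6Chi monocytes and SigF+CD11b- alveolar macrophages from lungs of SP-CI73T mutant mice, and the labels' cell type and time put the 22 samples into 6 groups. The authors deposited unnormalized read counts by gene, in a macrophage table of 31134 genes and a monocyte table of 55421 genes, of which 6505 held no count in any sample. Per the submitters' processing notes, STAR (2.7.2c and 2.7.3a), featureCounts 1.6.3 and GRCm38 were used; whether counting used strand is not given in the sources used here. Gene positions and exonic lengths came from GENCODE M21, and promoter sequences from RefSeq (GRCm38.p6).

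Testing was done with edgeR 4.0.16 under R 4.3.3. For each cell type, 1 quasi-likelihood fit over its 3 groups (filterByExpr, TMM normalization, robust dispersion) compared each injury time with control and the later time with the earlier. A joint fit of all 22 samples, on genes present in both tables, gave the difference between cell types in each change, and in the control level. All tests were two-sided and Benjamini-Hochberg adjusted across every gene tested, and a call required more than 1.5-fold change together with an adjusted p-value below 0.05. CPM used TMM factors, and log2 CPM a prior count of 2. The tests were run on simulated counts in which few genes changed. That setting does not check them under the broad shifts and the dependence on scaling seen here. Total counts were 15451460 to 28789639 for monocytes and 4610720 to 17074863 for macrophages, so that 3 counts, the limit that a count of 0 allows (counting error only), stood for 0.104 to 0.651 CPM. The labels do not say that samples of a group came from separate animals, so p-values measure the spread between these samples, which may be technical.

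The 8 genes and all lists were chosen with earlier results of these data known. Named are these 8 genes, other MS4A genes, the genes of receptors and adaptors listed beside the family, the 2 to 4 genes of each marker list with the highest mean CPM, and the 3 genes whose log2 CPM correlated best with each of the 8 that had a mean log2 CPM above 3. A few genes that this rule would name are not reported here. Alternatives were library size scaling, TMM restricted to highly expressed genes (mean log2 CPM over 5), DESeq2 1.42.0, no low-count filter, a stricter filter (mean log2 CPM over 1), a replicate block, only the groups compared, leaving out each sample, and, chosen after seeing the data, leaving out 2 control monocyte samples together.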

Additional observations from a re-analysis of the deposited data

Results flagged for a closer look

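In 32 groups of 4 samples, no sample of the 8 genes stood far from the rest of its group (Dixon's test, by which chance would mark about 1 group in 20). Groups of 3 were not examined.

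The change against control differed between macrophages and monocytes for 4 genes at 3 d and 5 at 14 d, by the interaction test of edgeR. At 3 d the change in macrophages exceeded that in monocytes by 2.14 for *Ms4a4b*, 2.59 for *Ms4a4c*, 1.73 for *Ms4a6b* and 0.83 for *Ms4a8a* on the log2 scale. The first 3 of these are genes with at most 9.80, 23.2 and 15.0 CPM in macrophages at that time, and *Ms4a8a* changed by -1.15 in monocytes and -0.14 in macrophages. At 14 d the difference was 4.08 for *Ms4a4a* and 1.20 for *Ms4a4b*, and it was -1.45 for *Ms4a6d*, -1.65 for *Ms4a7* and -2.003 for *Ms4a8a*. All 8 genes share the control samples of their cell type at both times. Explanations were not tested.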

How the results depend on the processing

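Over 1580 single-gene results under an alternative, 1433 kept their direction and their side of the threshold, 49 lost a call, 66 gained one and 32 changed sign, none of the last while called. Library size scaling and TMM from highly expressed genes moved the median of all genes at 3 d in monocytes from 0.22 to 0.70 and 0.74, and at 14 d in macrophages from 0.18 to 0.61 and 0.73, and the calls moved with it. The 4 members called lower in monocytes at 3 d became 2 under both and under the stricter filter, which also gave 0.29, 0.34 and 0.20 for *Ms4a4c*, and TMM from highly expressed genes called 1 member higher and gave 0.019 for *Ms4a6b* and 0.027 for *Ms4a6c*. With these 3 settings and DESeq2, 2 members rather than 1 were lower from 3 d to 14 d, and *Ms4a6c* was -0.22, -0.30 and -0.22 under the 3. In macrophages at 14 d, 3 members were called higher with both scalings and DESeq2 and 2 with the stricter filter or only the groups compared, with *Ms4a6d* at 0.17, 0.28 and 0.10 under the 3, and 5 differences between cell types were above 0 under these 4 settings (1 below 0 under TMM from highly expressed genes).

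The single call in macrophages at 3 d became 2 with DESeq2 and 0 with no filter, only the groups compared or the replicate block, and *Ms4a7* there was 0.0031 with DESeq2 and 0.026 with TMM from highly expressed genes. With no filter, *Ms4a6d* in monocytes at 3 d was -0.16, *Ms4a4b* from 3 d to 14 d was 0.15 (0.038 with only the groups compared), and 5 macrophage members were lower from 3 d to 14 d. Leaving out 2 control monocyte samples gave 0.0031 for the *Ms4a6c* difference at 3 d.

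The share of all genes called, higher and lower together, moved in monocytes from 51.2% to 13.3% (3 d), from 8.56% to 15.9% (14 d) and from 46.5% to 14.1% (14 d against 3 d) under the stricter filter, and to 3.69% at 14 d with no filter. In macrophages that filter moved it from 1.27% to 1.99% (3 d), from 62.3% to 38.6% (14 d) and from 56.4% to 32.6% (14 d against 3 d), and for the difference at 3 d from 18.7% to 10.3%. DESeq2 gave 3.64% and the replicate block 0.635% in macrophages at 3 d. The causes were not tested, except that a stricter filter tests fewer genes.

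No pair of groups had every correlation of same-numbered samples over 0.1, and the lowest was -0.17. Control and 14 d monocytes came close to that limit. Their same-numbered samples correlated at 0.0892 to 0.521 (mean 0.28), against a mean of -0.0929 for different numbers. Whether the numbers pair samples of those 2 groups cannot be told from these values. With the replicate block, *Ms4a4c* in macrophages at 3 d was 2.21 (adjusted p = 0.0824) and *Ms4a4b* at 14 d differed by 1.019 (adjusted p = 0.0874), leaving 1 difference above 0 at 14 d.

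Leaving out single samples gave 2 to 5 members lower in monocytes at 3 d, 1 to 2 lower from 3 d to 14 d, 0 to 3 higher in macrophages at 3 d, 1 to 2 higher at 14 d, 2 to 5 lower from 3 d to 14 d, and 1 to 5 differences above 0 at 14 d. The share of genes called ran from 4.59% to 8.14% in monocytes at 14 d, from 0.311% to 5.77% in macrophages at 3 d and from 7.87% to 20.1% for the difference at 3 d. *Ms4a6d* in monocytes at 3 d ran from -0.060 to 0.24 and *Ms4a4b* from 3 d to 14 d from -0.15 to 0.032. In macrophages *Ms4a7* at 3 d ran from -0.43 to 0.24, *Ms4a8a* at 3 d from -0.26 to 0.0049 and *Ms4a4b* at 14 d from -0.025 to 0.59, and the *Ms4a6c* difference at 3 d from -0.47 to 0.016. Depth limits the 5 genes under 25 CPM in macrophages most.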
